A study of Homo sapiens with 4 samples.

Results

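WDR5-only promoter sites lost with MS67 are places at the starts of genes where WDR5 was called on chromatin of HSSY II cells with DMSO, where SS18::SSX was not called, and where no WDR5 peak remained with MS67. There were 5409 such sites among 35605 WDR5 peaks in the DMSO list. A member was chosen by 3 values: the WDR5 DMSO peak overlapped no SS18::SSX peak of the DMSO list, it overlapped no WDR5 peak of the MS67 list by 1 bp or more, and its centre lay from 1000 bp upstream to 100 bp downstream of an annotated start of a protein-coding or long noncoding RNA (lncRNA) gene. Of 8494 WDR5-only promoter sites, 3085 overlapped an MS67 peak and are called kept. Among these promoter sites the lost share was 63.7%, and among all WDR5 DMSO peaks it was 75.0%. These shares are set by the selection and are given as a description.

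The data came from HSSY II, a human synovial sarcoma line that carries the SS18::SSX1 fusion, and all 4 libraries were made from it. MS67 is a proteolysis-targeting chimera (PROTAC) that binds WDR5 and marks it for degradation, and it was given for 4 days at 2.5 μM, with DMSO as the control. CUT&RUN, in which nuclease tethered to an antibody releases the bound chromatin, was performed for SS18::SSX and for WDR5 in each treatment, with murine NIH-3T3 cells added as a spike-in. There was 1 library per target and treatment, from 1 cell line, so that differences between DMSO and MS67 could not be set against a spread between replicates, and no p-value is given. The intervals given here for shares are exact Clopper-Pearson intervals at 95% that cover counting error only.

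WDR5 is a WD40-repeat protein known as a core subunit of the COMPASS family of methyltransferase complexes, which place methyl groups on lysine 4 of histone H3 at active promoters. It reads and scaffolds through a pocket called the WIN site and a second surface that can contact MYC, and it is known for binding near the starts of ribosomal protein and other housekeeping genes. SS18::SSX is a fusion subunit of the SWI/SNF chromatin remodeler and is the driver of synovial sarcoma. The sites described here are those at which a WDR5 peak was called at a promoter without an overlapping peak of that fusion.

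To show what such sites look like, the 121 bp around the summit is printed for 7 of them: the highest ranked by −log10 q of the DMSO list, and the strongest lost sites of a DNA primase gene, a SWI/SNF gene, and a COMPASS gene. They were read from hg38 on the strand of the gene, and capitals mark CpG dinucleotides, the measure in which lost and kept sites differ below. The windows are chr7:73842713-73842833 for *METTL27*, chr7:134432958-134433078 for *LINC03060*, chr10:35090715-35090835 for *CUL2*, chr7:143836632-143836752 for the lncRNA gene ENSG00000291149, chr6:57316846-57316966 for *PRIM2*, chr16:30894351-30894471 for *BCL7C*, and chr11:118435561-118435681 for *KMT2A*. *PRIM2* and *KMT2A* lie on the forward strand and the other 5 on the reverse strand.
METTL27: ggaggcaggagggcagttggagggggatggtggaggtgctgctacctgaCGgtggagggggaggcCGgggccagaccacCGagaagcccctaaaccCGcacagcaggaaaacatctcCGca
LINC03060: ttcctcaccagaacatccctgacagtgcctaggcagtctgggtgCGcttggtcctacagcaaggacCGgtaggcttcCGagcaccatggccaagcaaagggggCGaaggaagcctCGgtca
CUL2: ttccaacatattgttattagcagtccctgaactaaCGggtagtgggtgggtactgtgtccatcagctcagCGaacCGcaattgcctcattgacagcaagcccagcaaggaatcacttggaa
ENSG00000291149: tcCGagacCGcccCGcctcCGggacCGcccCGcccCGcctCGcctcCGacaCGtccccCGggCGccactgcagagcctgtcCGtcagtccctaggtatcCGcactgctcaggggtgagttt
PRIM2: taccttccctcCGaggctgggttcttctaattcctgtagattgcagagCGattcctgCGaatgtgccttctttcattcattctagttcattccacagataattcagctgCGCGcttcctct
BCL7C: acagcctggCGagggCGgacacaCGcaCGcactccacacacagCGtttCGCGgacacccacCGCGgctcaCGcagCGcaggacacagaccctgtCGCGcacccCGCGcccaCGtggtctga
KMT2A: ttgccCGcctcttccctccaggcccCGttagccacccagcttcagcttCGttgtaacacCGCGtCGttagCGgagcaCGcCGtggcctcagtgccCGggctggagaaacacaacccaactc

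The windows ran from CpG-poor to CpG-rich. *CUL2* had 3 CpG dinucleotides and 48.8% GC in this stretch, whereas *BCL7C* had 16 and 70.2% and ENSG00000291149 had 14 and 72.7%. *METTL27*, *LINC03060*, and *PRIM2* each had 5, and *KMT2A* had 10. Of the 9 motifs searched below, the SP/KLF motif matched in ENSG00000291149 and in *BCL7C*, *BCL7C* also held an E-box, and no motif matched in the other 5 stretches.

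Peak lists give no read totals, and depth was therefore recovered from each summit, where the deposited fold and p-value together fix the number of fragments (the pileup) and the local background. A typical lost site was modest in strength. Its median pileup was 12 fragments over a background of 1.73, its median fold enrichment was 4.63, its median −log10 q was 4.31, and its median width was 289 bp. The weakest lost site had a −log10 q of 1.30 and the strongest 23.5, and pileups ran from 4 to 55 fragments. Kept sites had a median pileup of 15, a fold of 5.25, a −log10 q of 5.81, and a width of 441 bp. These measures come from the same DMSO peaks that the selection used, and a wider peak has more room to overlap another, so that they are given without a test.

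The MS67 library was shallower. Genome-wide coverage was 0.368 fragments per bp for WDR5 with DMSO and 0.168 with MS67, and the lists held 35605 and 14123 peaks. When the pileup and background of each DMSO summit were multiplied by the ratio of these coverages, 0.458, 2254 lost sites (41.7%, 40.4 to 43.0%) still reached 4.06, the lowest −log10 p found in the MS67 list, against 1965 kept sites (63.7%). Among promoter sites that passed, 53.4% (51.9 to 54.9%) were lost, and among those that did not pass, 73.8% were lost. There were 1530 lost sites (28.3%) that passed and had no MS67 peak within 1 kb. The lists carry no spike-in scaling, and fewer cells with WDR5 at a site and less WDR5 per cell cannot be told apart in such data.

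The share lost fell with the strength of the DMSO peak. Among WDR5-only promoter sites it was 79.5% (74.2 to 84.1%) at −log10 q up to 2, 66.9% from 4 to 5, 44.7% from 8 to 12, and 26.5% (21.9 to 31.5%) over 12. Promoter sites that overlapped SS18::SSX showed 81.8% (59.7 to 94.8%), 73.0%, 39.6%, and 21.4% (14.2 to 30.2%) in the same bands. WDR5-only sites away from promoters were lost more often in each of the 8 bands, with 93.4% in the lowest and 37.0% (33.0 to 41.1%) in the highest. Over all bands, 814 of 1372 SS18::SSX promoter sites were lost (59.3%, 56.7 to 61.9%), which is 4.35 percentage points below the WDR5-only promoter sites, and 17930 of 22153 WDR5-only distal sites were lost (80.9%). The difference of 4.35 points reversed to -4.00 when an overlap of at least 50% of the DMSO peak was required, and the intervals of the 2 promoter classes overlapped in each of the 8 strength bands.

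**Figure D1:**
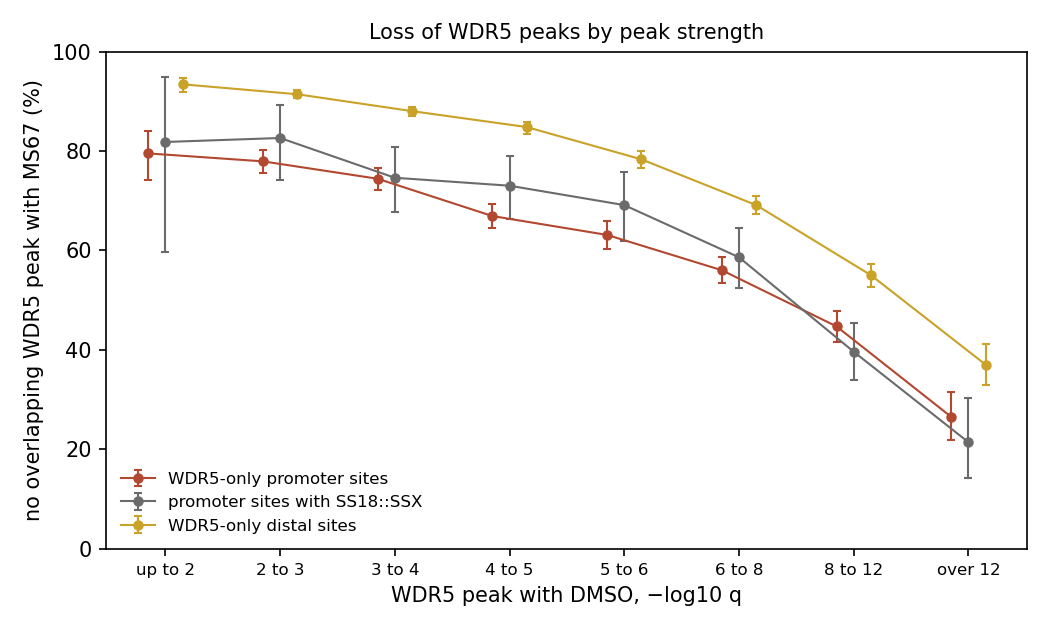
Share of WDR5 DMSO peaks without an overlapping WDR5 MS67 peak (percent) by −log10 q of the DMSO peak, with exact 95% intervals as bars, for WDR5-only promoter sites, promoter sites with SS18::SSX, and WDR5-only distal sites. The promoter classes lie close together, from 79.5% and 81.8% at the left to 26.5% and 21.4% at the right, and the distal sites lie above both.

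Width went with loss as well. When WDR5-only promoter sites were ranked by width and divided into 4 groups of nearly equal size, 79.2% of the narrowest (159 to 213 bp) were lost, compared with 41.6% of the widest (516 to 2284 bp). In 4 such groups by pileup the share was 76.3% at 4 to 10 fragments and 51.4% at 18 to 62. The selection has a sharp edge, and some sites lay on it. *AKR1A1* (aldo-keto reductase), *ZNF846*, and *APMAP* had an MS67 peak directly beside the DMSO peak with 0 bases between, and 33 lost sites in all had one within 10 bp. On the other side, 21 kept sites overlapped by 10 bp or less, among them *OGG1*, a DNA glycosylase, *JPH1*, and the lncRNA gene ENSG00000273416, each with 1 bp.

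The strongest lost sites lay at genes of varied function. The highest was 276 bp upstream of *METTL27*, a predicted methyltransferase, with a −log10 q of 23.5, a 10.0-fold enrichment, and 38 fragments over a background of 2.88, and the nearest MS67 peak was 103113 bp away. The next was 279 bp upstream of *LINC03060*, with an 11.7-fold enrichment and 30 fragments over a background of 1.65. The site at *CUL2*, a scaffold of cullin-RING ubiquitin ligases, had the most fragments of the named sites, 54, but over a background of 8.13, which left a 6.02-fold enrichment. An MS67 peak with 22 fragments and a −log10 q of 7.91 lay 243 bp from it.

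The lncRNA gene ENSG00000291149 had the largest fold of the 12 highest, 13.9, with 18 fragments over a background of 0.368. *AGTR1*, the angiotensin II type 1 receptor, followed with an 11.9-fold enrichment and 24 fragments, with its centre 28 bp downstream of the start. *GPR85*, an orphan receptor, and *DOK6*, an adaptor of receptor tyrosine kinases, had −log10 q of 18.3 and 19.4. Both were far from any MS67 peak, at 146180 and 238591 bp. *MTA3*, a subunit of the NuRD deacetylase complex, had a −log10 q of 18.2 with its centre 4 bp upstream of the start.

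Others of the 12 had lost 1 peak while another WDR5 peak stood close by. *STK3*, a kinase of the Hippo pathway, had 29 fragments with DMSO and an MS67 peak of 7 fragments 405 bp away. *BNC2*, a zinc finger protein, had 37 fragments with DMSO and an MS67 peak of 14 fragments 312 bp away, and *NQO2-AS1* had 33 and an MS67 peak of 17 fragments 199 bp away. *IL7*, a lymphocyte growth factor, had 31 fragments and a peak of 1043 bp, and its nearest MS67 peak was 137746 bp away. Thus 4 of the 12 had an MS67 peak within 1 kb and 8 did not. Of the 12, *METTL27*, *LINC03060*, ENSG00000291149, and *GPR85* were on chromosome 7, *STK3* and *IL7* on 8, *CUL2* on 10, and *DOK6* on 18. Median pileups of WDR5-only promoter sites on these chromosomes were 16, 16, 17, and 18 fragments. *BNC2*, *AGTR1*, *MTA3*, and *NQO2-AS1* were on chromosomes 9, 3, 2, and 6, with 13, 14, 13, and 13. The part of depth in this ranking was not tested.

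Over all lost sites, an MS67 peak lay within 100 bp of 216 (3.99%), within 1 kb of 1745 (32.3%, 31.0 to 33.5%), and within 10 kb of 2428 (44.9%). The median distance to the nearest MS67 peak was 16099 bp. For 1157 lost sites (21.4%, 20.3 to 22.5%) an MS67 peak still overlapped the same promoter by 1 bp or more. For each of the 1745 the nearest MS67 peak was taken, so that 1 peak can count for more than 1 lost site. It lay on the gene side of 1431 lost sites (82.0%), and its centre had a median position 171 bp downstream of the start. Lost centres are mostly upstream of a start by the position window, so that this share is a description. The median −log10 q of these peaks was 3.51, compared with 3.38 over all WDR5 MS67 peaks. The MS67 peak was nearer to the start than the lost site in 841 of 1745 cases (48.2%). In 924 cases (53.0%) it overlapped another DMSO peak, and in the rest it overlapped none.
*MCM10*, a replication initiation factor, shows the arrangement: the lost peak was centred 376 bp upstream and an MS67 peak of 11 fragments lay 117 bp downstream of the start.

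Lost sites were centred farther from the start than kept sites. Their median position was 307 bp upstream (quartiles -571 and -82 bp), and that of kept sites was 233 bp upstream (-462 and -17 bp). A centre more than 500 bp upstream was found for 30.7% (29.5 to 32.0%) of the lost and 21.7% (20.2 to 23.2%) of the kept sites, and 84.9% and 79.2% were upstream of the start at all. Of 4 groups by position, the most upstream (-1000 to -531 bp) lost 72.2% and the group from -49 to +100 bp lost 56.2%. Since the position window is part of the selection, only the spread within it can vary.
The annotation of lost and kept sites differed as well. Exons held 36.6% of lost and 46.1% of kept centres. Introns held 33.6% and 29.4%, and 29.8% and 24.5% were in neither. Promoters on both strands at once, as at divergent gene pairs, held 8.32% (7.60 to 9.09%) of lost and 11.1% (9.97 to 12.2%) of kept sites. The nearest start belonged to a protein-coding gene for 78.1% of lost and 78.7% of kept sites, which differed by less than the counting intervals.

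**Figure D2:**
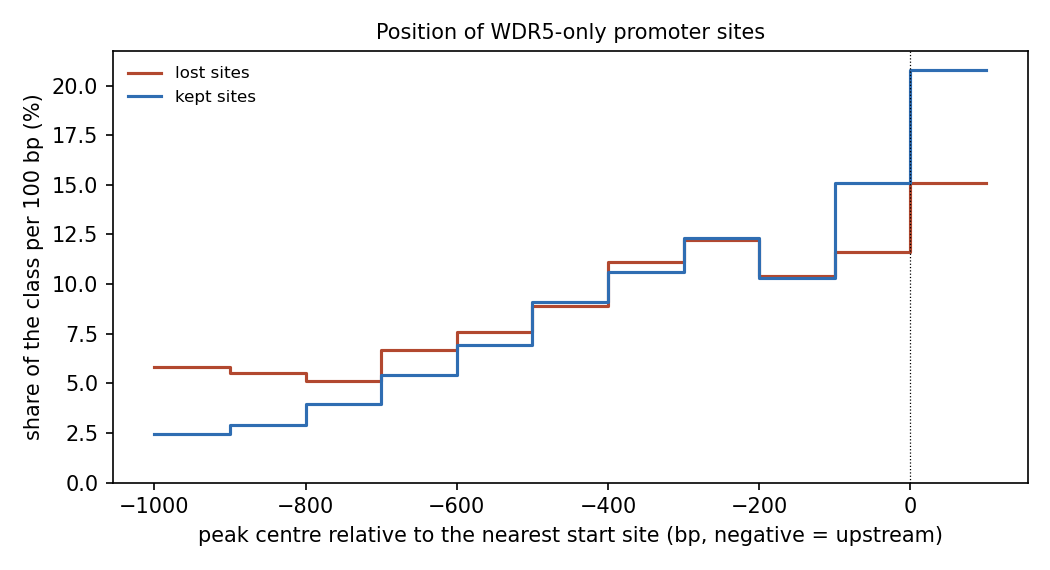
Position of the peak centre relative to the nearest annotated start (bp, negative is upstream) for 5409 lost and 3085 kept sites, as the share of each class per 100 bp (percent). Lost sites hold 5.82% in the most upstream bin against 2.46% of kept sites, and kept sites hold the larger share from 0 to +100 bp, 20.8% against 15.1%.

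Base composition was not used in the selection. Within 301 bp at the summit, lost sites had a median GC content of 60.8% (quartiles 53.8 and 67.4%) and kept sites 63.5% (57.8 and 68.4%). Over the whole peak the medians were 61.5% and 63.5%, a difference of -2.00 points. The ratio of observed to expected CpG had a median of 0.627 in lost and 0.689 in kept sites, and 51.3% of lost and 65.5% (63.8 to 67.2%) of kept sites exceeded both 50% GC and a ratio of 0.6, a common mark of CpG islands. Lost distal sites were far lower, with medians of 53.2% and 0.289. Of 4 groups of promoter sites by GC, the poorest (31.6 to 55.1% GC) lost 75.2%, the next to richest 56.4%, and the richest 59.6%.
The gap was largest away from the start. For centres over 500 bp upstream the median GC was 56.5% in lost and 60.6% in kept sites, and from 200 bp upstream to 100 bp downstream it was 64.1% and 64.8%. Within bands of −log10 q the lost sites had the lower median GC in each of the 4 bands, with 60.5% against 64.1% up to 3 and 62.5% against 63.8% above 8. Composition and position thus changed together, and their separate parts were not tested.

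**Figure D3:**
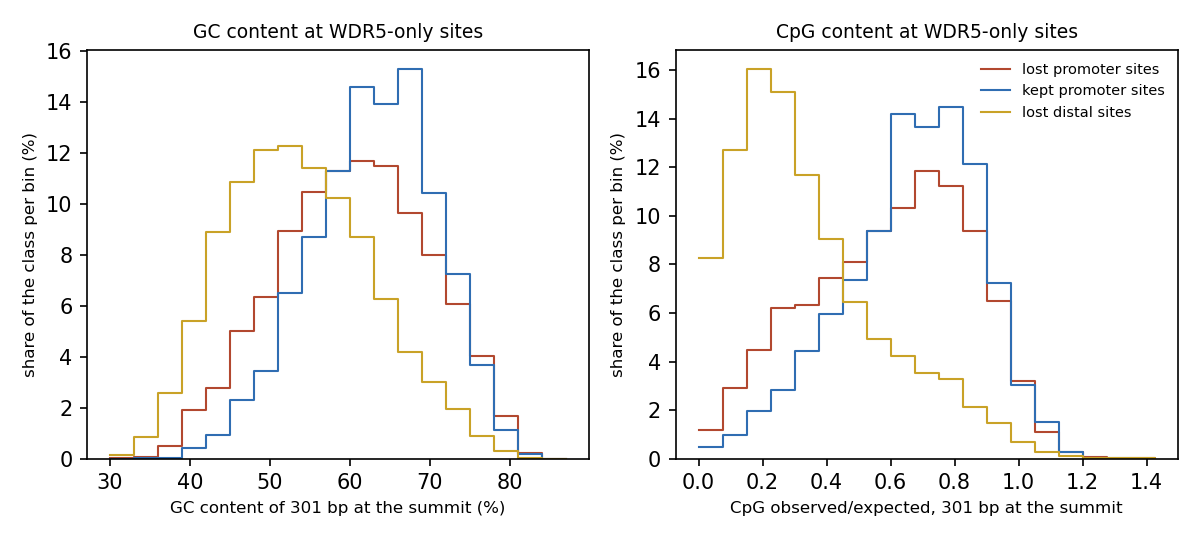
GC content (percent, left) and observed/expected CpG (right) in 301 bp at the summit of lost promoter, kept promoter, and lost distal WDR5-only sites, as the share of each class per bin (percent). Lost promoter sites lie between the others, with median GC of 60.8%, and carry a shoulder of low CpG that kept sites have less of.

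Motifs known from promoters were searched on both strands within 150 bp of the summit, which is 301 bp, and the same length centred 300 bp upstream of all 84607 annotated starts gave the reference. The letters searched were CCGGAAG for ETS factors, CCAAT for NFY, GGGCGG for SP/KLF factors, GCGCATGCG for NRF1, CACGTG for the E-box that MYC and MAX bind, AAGATGGCG for YY1, TGACGTCA for the CRE, TATAAA for the TATA box, and TGANTCA for AP-1. Matches of different motifs can overlap. A match is a description of the letters and not of binding. The reference was not matched to the sites for position or GC content, so that contrasts with all promoters are a description.

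SP/KLF letters were the most frequent and stood in 2496 lost sites (46.1%, 44.8 to 47.5%) and 1658 kept sites (53.7%, 52.0 to 55.5%), against 32.3% of all promoters. ETS letters stood in 5.47% (4.88 to 6.11%) of lost and 8.07% (7.13 to 9.09%) of kept sites, against 4.93% of all promoters. NFY went the other way with 25.6% (24.4 to 26.8%) of lost and 22.1% (20.7 to 23.6%) of kept sites, both below the 31.5% of all promoters. TATA letters stood in 4.77% (4.22 to 5.37%) and 3.47% (2.85 to 4.18%), both well below 13.6%. For these 4 of 9 motifs the intervals of lost and kept sites were apart. Within 150 bp of the peak centre instead of the summit, the intervals of NFY met, at 25.6% (24.4 to 26.8%) and 23.6% (22.1 to 25.1%), and those of AP-1 were narrowly apart, at 6.14% (5.51 to 6.81%) and 4.70% (3.98 to 5.51%).
The other motifs differed by less than their intervals, with the E-box at 6.91% and 7.03%, NRF1 at 0.998% and 1.36%, YY1 at 0.444% and 0.616%, the CRE at 0.536% and 0.875%, and AP-1 at 5.99% and 5.15%. None of the 9 was found in 29.8% of lost and 26.9% of kept sites. Position moved with these shares. ETS letters stood in 2.46% of lost and 4.03% of kept sites over 500 bp upstream, and in 7.85% and 11.2% from 200 bp upstream to 100 bp downstream. Over the whole peak instead of a fixed length, where kept sites offer more bases, the differences of NFY and TATA turned to -6.96 and -0.467 percentage points. That of AP-1 turned as well, to -1.64 points, with 6.30% (5.67 to 6.99%) of lost and 7.94% (7.01 to 8.95%) of kept sites.

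**Figure D4:**
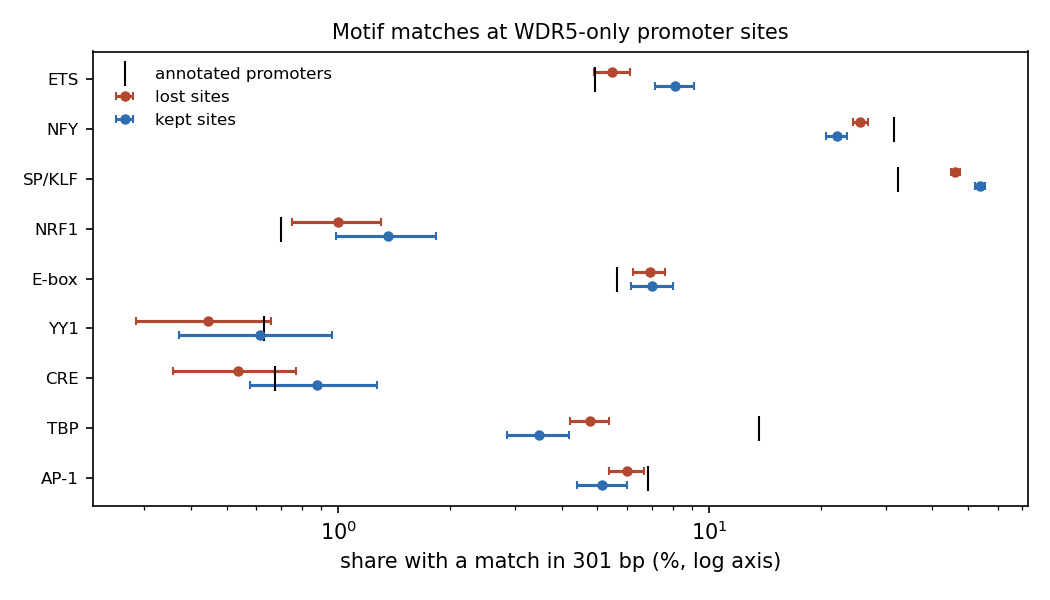
Share of lost and kept WDR5-only promoter sites with a motif match within 150 bp of the summit (percent, log axis), with exact 95% intervals as bars, and the share of all annotated promoters as black ticks (TBP stands for the TATA letters). SP/KLF and ETS shares are lower in lost than in kept sites, 46.1% against 53.7% and 5.47% against 8.07%.

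By selection no SS18::SSX peak of the DMSO list overlapped these sites, but the SS18::SSX peaks with MS67 were not used to choose them. A missing peak call in 1 library does not show that the protein was absent. That MS67 list was short, with 1175 peaks against 15141 with DMSO, so that few overlaps were possible in any class. Of the 5409 lost sites, 8 overlapped an SS18::SSX MS67 peak (0.148%, 0.0639 to 0.291%), and of the 3085 kept sites 3 did (0.0972%, 0.0201 to 0.284%). The shares overlapped in their intervals. Among all WDR5 DMSO peaks the share was 1.20%, and among promoter sites that held SS18::SSX with DMSO it was 4.66% (64 of 1372). Both of these groups include sites with an SS18::SSX DMSO peak, which the selection removed from lost and kept sites. The lower shares are therefore given as a description. The 8 lost sites were at *TUB*, *BEGAIN*, *EMX1*, *MALL*, *MRPL36*, and 3 lncRNA genes named by identifier alone, ENSG00000176984, ENSG00000258572, and ENSG00000291209. The 3 kept sites were at *B3GNT7*, *CDPF1*, and *ZDHHC11*, and all 11 were named after their values were seen. An SS18::SSX DMSO peak lay within 1 kb, without overlap, of 824 lost sites (15.2%, 14.3 to 16.2%) and of 343 kept sites (11.1%, 10.0 to 12.3%).
Of 4 further loci that had been fixed by name, *MNX1*, a homeobox gene, had 1 lost WDR5-only site and 1 WDR5 site with SS18::SSX, also lost. The WDR5-only site was 645 bp upstream with 34 fragments over a background of 10.0, a 3.18-fold enrichment, and an SS18::SSX DMSO peak stood 1672 bp from it. The other was 60 bp downstream with 27 fragments and a 2.58-fold enrichment. *SIM2* had 1 promoter site, with SS18::SSX, and *SOX8* and *NTSR1* had 0 WDR5 peaks at their promoters.

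The lost sites fell at the promoters of 4225 of 20033 protein-coding genes, which is 21.1% of them, and of 1279 of 18866 lncRNA genes, or 6.78%. Kept sites fell at 2634 protein-coding genes (13.1%). Both kinds stood at 381 genes, so that 3844 genes had a lost site and no kept one. Most genes had 1 lost site (3847 of the protein-coding genes), 345 had 2, and 30 had 3. *TCF4*, a basic helix-loop-helix factor with many starts, had 5, *ATP8B2* and *FBXL19* had 4, and the lncRNA gene *MIR99AHG* had 5, named after these counts were seen. Of the genes with a WDR5-only promoter site, lost or kept, 65.2% had a lost one, and each list below is read against this share and the 21.1%.

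Translation genes lay mostly near the share of all protein-coding genes. Of 88 cytosolic ribosomal protein genes, 18 had a lost site (20.5%, 12.6 to 30.4%) and 10 a kept one, with none in common. Among the strongest were *RPS20* with 17 fragments and a −log10 q of 7.91 and *RPS15* with 12 and 6.92, both of the small ribosomal subunit. An MS67 peak of 6 fragments stood 414 bp from that of *RPS15*, whereas the nearest to *RPS20* was 136483 bp away.
Mitochondrial ribosomal protein genes had a lost site at 26 of 83 (31.3%, 21.6 to 42.4%) and a kept one at 23, led by *MRPS24* with a −log10 q of 10.5, *MRPL24* with 9.31, and *MRPS16* with 8.96. At *MRPS24* an MS67 peak of 7 fragments began 17 bp away. The interval of this list lay just above the 21.1% of all genes, but its lost share among genes with either kind of site was 55.3% (40.1 to 69.8%), an interval that held the 65.2% of all such genes.
Of 69 translation factor genes, 18 had a lost (26.1%, 16.3 to 38.1%) and 18 a kept site. The strongest were *EIF6*, which keeps the large ribosomal subunit apart from the small, at a −log10 q of 10.7, *EEF2K* at 10.4, and *EEF1AKMT2* at 8.35. An MS67 peak lay 568 bp from the site of *EIF6*, 1 bp from that of *EEF2K*, and 162 bp from that of *EEF1AKMT2*. *EEF2K* and *EEF1AKMT2* are a kinase and a methyltransferase of elongation factors, not factors themselves. Of 38 aminoacyl-tRNA synthetase genes, which charge tRNAs, 13 had a lost site (34.2%, 19.6 to 51.4%), among them *SARS1* with 13 fragments and a −log10 q of 7.60 and *GARS1* with 16 and 7.18. The intervals of both lists held 21.1%.

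Genes of RNA synthesis and processing were also measured. RNA polymerase subunit genes had a lost site at 8 of 34 (23.5%, 10.7 to 41.2%, against 21.1% of all protein-coding genes) and a kept one at 6. *POLR3GL*, *POLR1G*, and *POLR3E* stood at −log10 q of 6.71, 6.15, and 5.81. Spliceosome genes had 15 of 45 lost (33.3%, 20.0 to 49.0%) and 8 kept, led by *SF3B2* at 5.39 and *SNRPB* at 5.21, and *PRPF8*, the core scaffold of the spliceosome, stood at 4.17. Of 28 snoRNA host genes, which are lncRNA genes, 6 had a lost site (21.4%, 8.30 to 41.0%, against 6.78% of all lncRNA genes). A kept site was found at 5 (17.9%, against 4.10% of all lncRNA genes). Of the hosts with either kind, 54.5% (23.4 to 83.3%) had a lost one, against 65.5% of such lncRNA genes. The strongest lost sites were those of *SNHG6* at 8.17, *SNHG26* at 6.52, and *SNHG12* at 6.21. The site of *SNHG6* was 25 bp from an SS18::SSX peak.

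Genes of energy and protein turnover showed more lost than kept sites, as did all protein-coding genes (21.1% and 13.1%). Complex I subunits and assembly factors, of the respiratory chain, had a lost site at 16 of 47 (34.0%, 20.9 to 49.3%) and a kept one at 6, with *NDUFB4* at a −log10 q of 11.2, *NDUFB8* at 10.7, and *NDUFB6* at 7.31. MS67 peaks of 8 fragments each lay 141, 247, and 619 bp from these sites. Proteasome genes had 11 of 48 lost and 5 kept, with *PSME3* and *PSME1*, of the proteasome activator, at 7.83 and 7.74 and *PSMD3* at 5.41. Autophagy factors had 10 of 33 lost (30.3%, 15.6 to 48.7%) and 5 kept. *ATG101*, of the initiating kinase complex, stood at 23 fragments, and the −log10 q was 8.25 at *ATG7* and 6.68 at *ATG4D*. The intervals of all 3 lists held the 21.1% of all genes, and they held 65.2% as the lost share among genes with a site.

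RAB GTPases, which direct vesicle traffic, had the highest share of genes with a lost site among the 23 lists. A lost site was found at 23 of 63 genes (36.5%, 24.7 to 49.6%) and a kept one at 9 (14.3%, 6.75 to 25.4%), and 85.2% (66.3 to 95.8%) of the 27 genes with either had a lost one. HOX, histone, keratin, and olfactory receptor genes stood higher on that second share, at 100%, with 7, 3, 2, and 1 genes. *RAB6B*, of Golgi transport, had 21 fragments and a −log10 q of 10.1, with an MS67 peak of 6 fragments 277 bp away. *RAB36* had 15 fragments and 7.35, and *RAB20* had 17 and 6.82. Potassium channel genes had a lost site at 25 of 95 (26.3%, 17.8 to 36.4%) and a kept one at 9 (9.47%), led by *KCNN2* with 13 fragments and 9.81, *KCNH1* with 17 and 9.44, and *KCNK2* with 14 and 8.35. Their interval held 21.1%.

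Genes of the cell cycle and genome upkeep were also among the members. DNA replication factors had a lost site at 17 of 56 (30.4%, 18.8 to 44.1%) and a kept one at 10, with *PRIM2*, the large primase subunit, at a −log10 q of 8.73, *TOPBP1*, of checkpoint signalling, at 8.51, and *MCM10* at 7.97. Fanconi and homologous recombination factors had 7 of 34 lost (20.6%, 8.70 to 37.9%) and 7 kept, with *FANCE* at 10.4, *RAD51D* at 5.76, and *MRE11* at 4.17. Kinesin and centromere protein genes, a list read from symbols and not limited to cell division, had 15 of 63 lost (23.8%, 14.0 to 36.2%) and 7 kept. *KIF6* stood at 8.56, *KIF17* at 8.25, and *KIF3B* at 8.20. The intervals of the lists in this paragraph held the 21.1% of all genes, and also 65.2% as the lost share among genes with a site.

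Chromatin regulators, the field in which WDR5 itself works, gave small counts. Of 19 COMPASS genes, 4 had a lost site (21.1%, 6.05 to 45.6%) and 2 a kept one, and the 4 were *KMT2A*, *KMT2D*, *ASH2L*, and *SETD1A*. *KMT2A*, a histone methyltransferase, had 15 fragments and a −log10 q of 3.73 at 895 bp upstream. *ASH2L*, a core subunit beside WDR5, had 11 fragments and 3.07, and *SETD1A*, another methyltransferase, had 10 and 2.77. All 3 lay below the median of lost sites, 4.31.
SWI/SNF genes had a lost site at 10 of 32 (31.2%) and a kept one at 6. *BCL7C* had 27 fragments and a −log10 q of 9.32, *BCL11A* had 29 and 8.08, and *SMARCB1*, a core subunit that SS18::SSX is known to displace from the complex, had 14 and 7.16. Polycomb genes had 8 of 35 lost (22.9%, 10.4 to 40.1%) and 8 kept, and the intervals of the COMPASS, SWI/SNF, and Polycomb lists held the 21.1% of all genes. *BCOR* stood at 6.47, *PCGF6* at 5.59, and *RNF2*, the ubiquitin ligase of the complex, at 5.06, where an MS67 peak of 7 fragments lay 183 bp away. Zinc finger genes had 96 of 508 lost (18.9%, 15.6 to 22.6%) and 79 kept (15.6%), led by *ZNF782* at 15.3, *ZNF281* at 13.2, and *ZNF48* at 12.5.

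Olfactory receptor and keratin genes had few such sites. *OR52N2* was the 1 of 400 olfactory receptor genes with a lost site, and 2 of 55 keratin genes, *KRT18* and *KRT15*, had one. No other gene of these lists had a WDR5 promoter site of any kind with DMSO. Replication-dependent histone genes, which dividing cells use, had 3 of 69 lost (4.35%, 0.906 to 12.2%), *H1-4*, *H4C13*, and *H2AC13*, and 0 kept. HOX genes had 7 of 39 lost (17.9%, 7.54 to 33.5%) and 0 kept (0 to 9.03%), and the interval of the lost share held the 21.1% of all protein-coding genes. *HOXA6* had 18 fragments and a −log10 q of 4.81 and was 95 bp from an SS18::SSX peak, *HOXB13* had 14 and 4.81, and *HOXD8* had 16 and 3.96.

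**Figure D5:**
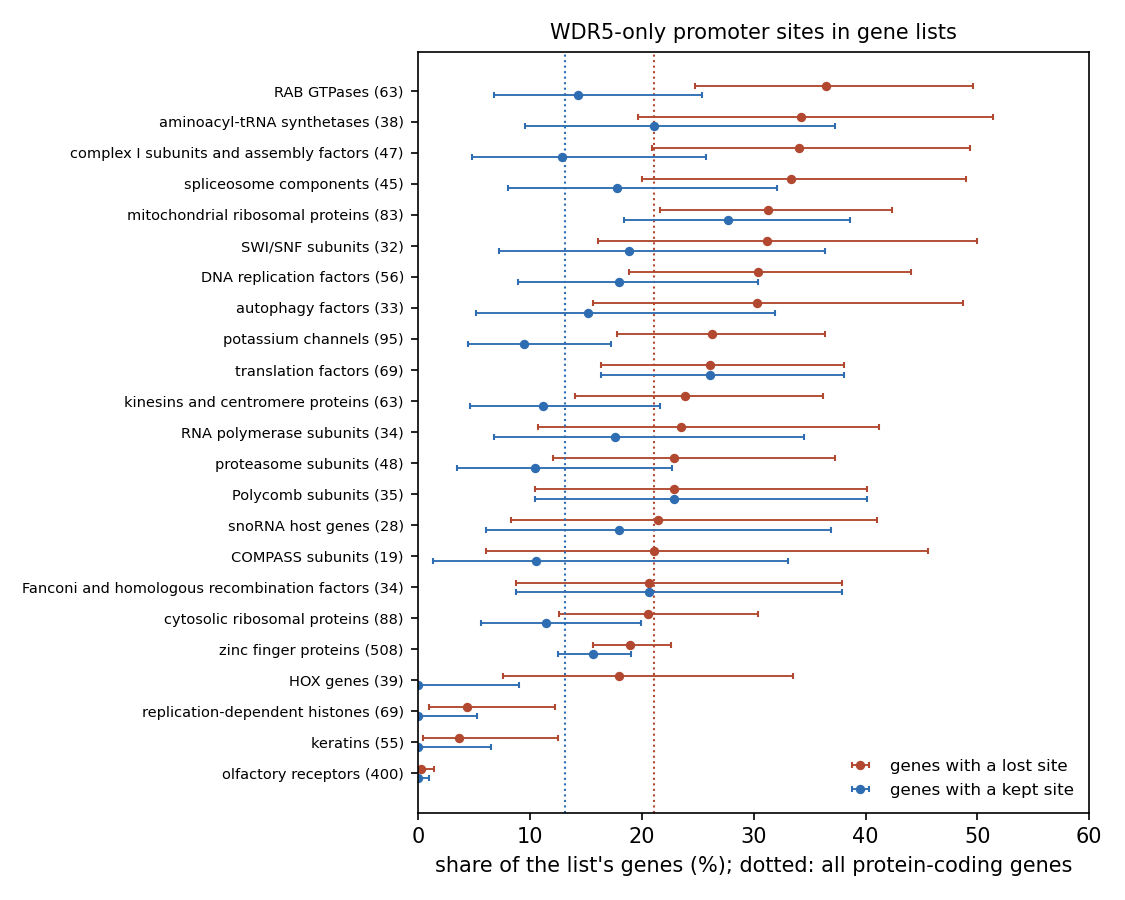
Share of the genes of each of 23 lists with a lost or a kept WDR5-only promoter site (percent), with exact 95% intervals as bars, the number of genes in brackets, and dotted lines at the shares of all protein-coding genes, 21.1% and 13.1%. RAB GTPases stand at the top with 36.5%, and most intervals hold the share of all genes.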

How the data were processed

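CUT&RUN for SS18::SSX and WDR5 was performed in HSSY II cells with DMSO or MS67, with 1 library each. The authors aligned reads to hg38 with Bowtie2, removed PCR duplicates with Picard, and called peaks with MACS2 in each library; the MACS2 options and any control are not given in the sources used here. For each peak the authors deposited its fold enrichment (the summit over the local background), the −log10 p and −log10 q, and a score, which was not used. No spike-in scaling is part of these values.

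Pileup and background were solved from fold and p, with MACS2's definitions, and a whole-number pileup was recovered for 100% of peaks within 0.001 in −log10 p. The lowest background was taken as genome-wide coverage, which ranged from 0.168 to 0.737 fragments per bp. The step was tested on simulated data. Peaks overlapped if they shared 1 bp. Promoters were those of basic GENCODE 44 transcripts, 84607 starts. A gene had a lost site if the site lay in any of its promoters. Lists were read from gene symbols, and the 23 lists and the members were chosen with earlier results of these data known.

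Named genes were those of the 12 lost sites of highest −log10 q, up to 3 per list, 4 loci fixed by name (*MNX1*, *SOX8*, *NTSR1*, and *SIM2*), and the 3 sites nearest to each side of the overlap threshold. Of the genes that this rule covers, 2 are not reported here. With 1 library per condition, no test was run. The alternatives were another overlap, stricter peaks, a DMSO list reduced to the size of the MS67 list, other promoters, and other windows for GC and motifs. Promoters of all transcripts and scaled summits were added after seeing the data. Tools were scipy 1.17.1 and numpy 2.4.6, with pandas 2.3.3 for tables and matplotlib 3.10.9 for plots, in Python 3.11.15.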

Additional observations from a re-analysis of the deposited data

How the results depend on the processing

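No paired analysis was possible because each condition had 1 library. Requiring 50% overlap, the share lost was 80.5%, the difference from promoter sites with SS18::SSX reversed to -4.00 points, and the share of lost sites whose promoter still held an MS67 peak was 37.7%. Counting peaks within 1 kb as overlapping left 3094 lost sites (42.2%) at 2366 protein-coding genes, with a difference of -4.81 points (reversed), a promoter share of 0.0323%, and lost minus kept GC over the whole peak (-2.00 points otherwise) of -0.390. Peaks with −log10 q above 3 and fold above 6 (WDR5) or 3 (SS18::SSX) gave 1579 lost sites (79.1%) at 1344 genes, a promoter share of 3.67%, 0% overlapping SS18::SSX with MS67, and GC of -0.144. With −log10 q above 5, 84.9% were lost, the difference reversed to -1.36, the promoter share was 3.24%, the SS18::SSX share 0%, and GC -0.475. A DMSO list as short as the MS67 list gave 2055 lost sites (52.4%) at 1726 genes and an SS18::SSX share of 0.292%. With 1 start per gene, the share lost was 64.8% and the promoter share 19.1%. Promoters from -500 to +500 bp gave 60.0% lost, an SS18::SSX share of 0.0561%, and GC of -0.829. GC within 150 bp of the summit, the window given first in the report, differed by -2.66. Summits that passed after scaling gave 2254 lost sites (53.4%) at 1888 genes, a promoter share of 20.1%, and GC of -1.34. Over the whole peak, where wider peaks offer more bases, 7 motifs had intervals apart instead of 4, and NFY and TATA reversed to -6.96 and -0.467. The cause of the other shifts was not tested. In all, 49 of 91 comparisons stayed within their limits, 37 moved, and 5 reversed. Not counted as reversed were AP-1 over the whole peak (-1.64) and the E-box at the peak centre (0.134), which also changed sign. The GC difference was below 0 in each alternative run, but its bounds, from the 95% intervals of both medians, held 0 within 1 kb (-1.17 to 0.430), with −log10 q above 3 and the fold limits (-1.41 to 1.34), and with −log10 q above 5 (-1.27 to 0.430). After scaling to the MS67 coverage, 58.3% of lost sites fell short of the MS67 threshold, as did 36.3% of kept sites, and the part of depth in the loss was not tested.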

Other observations

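The share of WDR5-only promoter sites that were lost varied between chromosomes. It was 49.4% on chromosome 18 and 51.3% on chromosome 7, where the median pileups of these promoter sites with DMSO were 18 and 16 fragments, and 73.5% on chromosome 11 and 69.9% on chromosome 14, where they were 12 and 11. The median background followed, at 2.74, 2.33, 1.48, and 1.37. Over the 22 autosomes the share lost and the median pileup had Pearson's r of -0.869 and Spearman's rho of -0.766, given as a description, since all points come from the same pair of libraries. The part of depth in these differences was not tested.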
